A study of Mus musculus with 12 samples.

Results

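The endoplasmic reticulum (ER) folds secreted and membrane proteins, and 37 genes of this machinery were followed in common lymphoid progenitors (CLPs) of mice with and without the long noncoding RNA *Firre*. The genes were listed by name and role, with earlier results of these data known: 7 chaperones, 4 disulfide isomerases grouped with their partner *Creld2*, 3 J proteins, 7 translocation genes, 4 signal peptidase subunits, 7 genes of ER-associated degradation, and 4 sensors and transcription factors of the unfolded protein response. All 37 were found by symbol among 47643 genes in the expression table, and all 37 were among the 14479 genes tested (mean TPM, a level scaled to gene length and depth, of at least 1 over the 12 libraries).

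The 12 poly(A) RNA-seq libraries came from CLPs of adult, age- and sex-matched male mice, 4 each of WT, ∆*Firre* and *Firre* rescue. The ∆*Firre* allele lacks the whole *Firre* locus after CMV-Cre recombination, so every tissue carries the deletion, and was then backcrossed to C57BL/6J. *Firre* rescue mice carry the same deletion together with tg(*Firre*), a *Firre* cDNA under a tet-responsive element, and a CAG-driven rtTA3 activator from a line of B6N.FVB origin bred to C57BL/6J, and received doxycycline in their diet. CLPs were sorted from bone marrow as lineage-negative, Sca1-low, c-Kit-low, IL7Ra-positive cells. The comparison of ∆*Firre* with WT asks what loss of the locus does, and that of *Firre* rescue with ∆*Firre* asks what *Firre* RNA supplied from elsewhere in the genome does.

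When client proteins exceed the folding capacity of the ER, 3 membrane sensors respond. Ire1 (*Ern1*) splices *Xbp1* mRNA, Atf6 is cleaved to release a transcription factor, and Perk (*Eif2ak3*) slows translation by phosphorylating eIF2α. Xbp1 and Atf6 raise chaperones such as BiP (*Hspa5*) and components of ER-associated degradation, and in the B lineage Xbp1 is known for its part in the secretory expansion of antibody-secreting cells. TPM per gene adds the spliced and unspliced forms of *Xbp1*, so Ire1 activity was not measured.

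*Firre* was read first as a check of the labels. WT libraries held it at 26.4, 31.6, 25.2 and 30.2 TPM. None of the 4 ∆*Firre* libraries had a read of it, where 3 reads would have given at most 0.0746 TPM. *Firre* rescue libraries held it at 59.9, 135, 63 and 174 TPM, above every WT library. Of 10 CLP markers, *Il7r* (353 to 525 TPM), *Flt3* (506 to 709 TPM) and *Dntt* (4315 to 6725 TPM) were high in all 12 libraries and were not called in any comparison. In *Firre* rescue against ∆*Firre*, *Ly6d* (1.36), *Ebf1* (1.03) and *Rag1* (0.73), which mark progenitors turning to the B lineage, were called higher and *Kit* (-0.49) and *Cd34* (-0.30) lower, and the same 5 were called in the same directions against WT. The CLP marker sum, most of it *Dntt*, ran from 9013 to 9807 TPM in *Firre* rescue, above every WT (6385 to 8984 TPM) and ∆*Firre* library (7524 to 7783 TPM). WT libraries rested on 10900675 to 18009186 reads recovered from the TPM, ∆*Firre* libraries on 14231818 to 17413148 and *Firre* rescue libraries on 25531452 to 32302421, and each of the 37 genes rested on between 217 and 25335 reads in a library. The 4 *Firre* rescue libraries carry library numbers of their own, so how they were prepared, the activator, its strain of origin, doxycycline and *Firre* RNA cannot be told apart.

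Transcripts of other cell types also differed between *Firre* rescue and the other groups, some lower and some higher. The summed level of 15 markers of antibody-secreting cells ran from 14518 to 18882 TPM over WT, from 22719 to 40764 TPM over ∆*Firre* and from 2714 to 5352 TPM over *Firre* rescue libraries. Immunoglobulin kappa (*Igkc*) was the largest part of it in WT and ∆*Firre*, and *Ighm* (2347 to 2595 TPM) in *Firre* rescue. The sum of 5 basophil and mast cell markers ran from 1032 to 8867, from 2889 to 4243 and from 63.5 to 142 TPM in the same order, and in *Firre* rescue *Ms4a2* was at 0 in 3 libraries and at 0.128 TPM in the fourth. The B cell sum was 135 to 259, 190 to 242 and 416 to 749 TPM. Natural killer cell markers summed to 331 to 691, 393 to 618 and 228 to 283 TPM, and those of type 2 innate lymphoid cells to 45.5 to 80.8, 50.1 to 65.2 and 21.5 to 39.1 TPM. The sums of the 4 remaining lists overlapped between groups (plasmacytoid dendritic cells 463 to 674, eosinophils 3.67 to 211, neutrophils 122 to 1609 and erythroid cells 11.8 to 101 TPM over all 12 libraries). Against ∆*Firre*, the adjusted test called 2 of the 15 antibody-secreting markers higher and 9 lower in *Firre* rescue. All 5 basophil and mast cell markers were called lower there. Of all genes, 8.58% were called higher and 19.3% lower in this comparison. The lineage cocktail that the study lists for bone marrow holds antibodies to CD3, Gr-1, B220, Ter-119 and CD11b, a gate that would remove B cells, neutrophils and erythroid cells carrying these proteins. The part of these cells in the results was not tested, and in bulk RNA fewer cells of a type and less RNA per cell cannot be told apart.

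**Figure D1:**
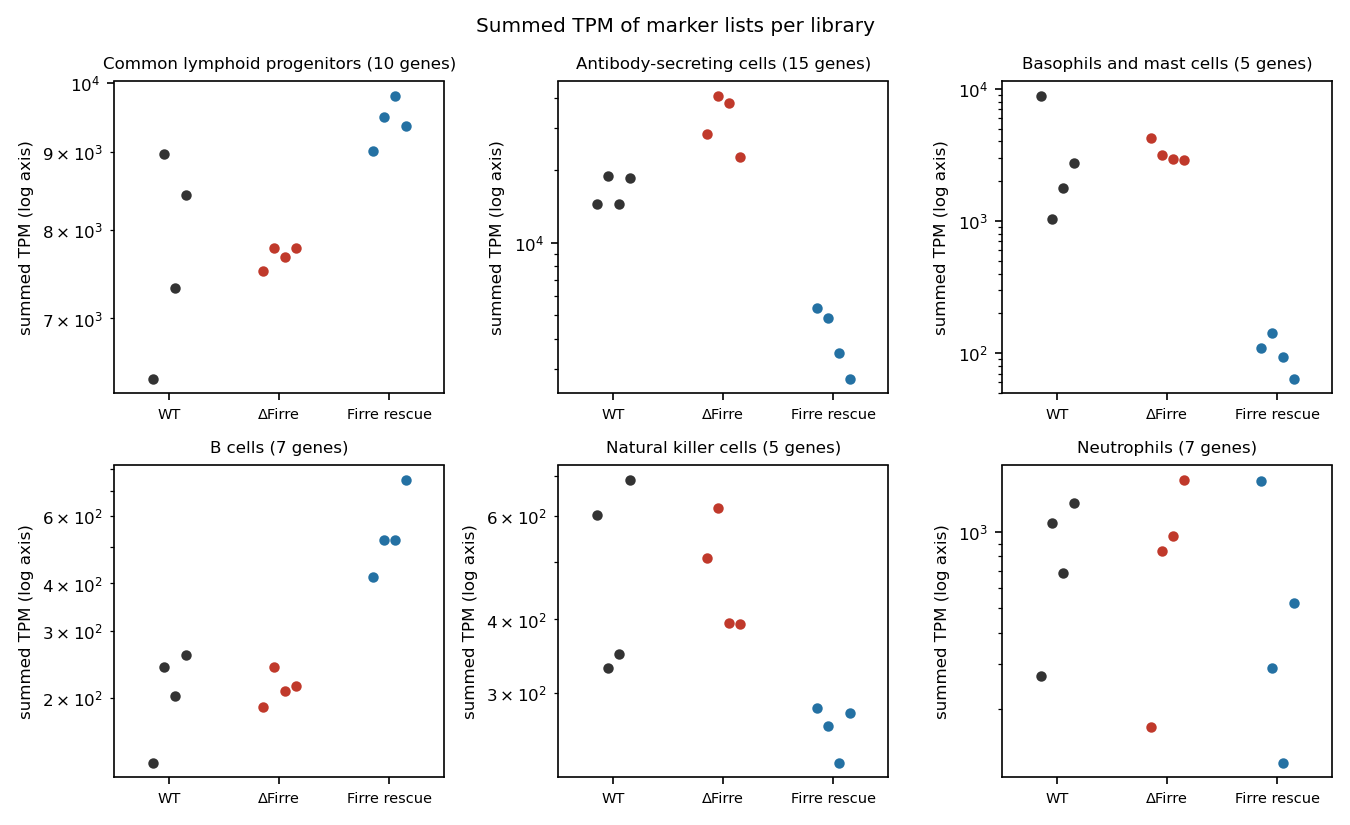
Summed TPM of 6 marker lists in each of the 12 libraries (points, log axis), by group. Antibody-secreting sums fall to 2714 to 5352 TPM and basophil and mast cell sums to 63.5 to 142 TPM in Firre rescue, below every WT and ∆Firre library.

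The promoters were searched for elements through which Atf6 and Xbp1 are known to act. RefSeq gave a promoter (250 bases before to 50 after the start site, GRCm38.p6) for 29 of the 37 genes. The ER stress response element, ERSE, spelled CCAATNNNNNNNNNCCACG and searched on both strands, was found in 8 of these 29 genes (27.6%) and in 37 of 27025 genes with a promoter in the same table (0.137%). The shorter ERSE-II, ATTGGNCCACG, was found in *Dnajb11* and *Herpud1* (6.9% against 0.0444%), and the core unfolded protein response element TGACGTGG in none of the 29, against 0.714% of all genes. None of the matches to ERSE shared bases with a match to ERSE-II. The genes were listed for their roles in this response, so their higher shares of ERSE and ERSE-II are no result of these data. The 9 ERSE matches in the 8 genes are printed 5′ to 3′ on the strand that reads CCAAT first, with the fixed letters in capitals, because these 8 genes all lay on the same side of WT in ∆*Firre*.
Calr: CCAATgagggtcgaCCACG
Canx: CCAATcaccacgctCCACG
Creld2: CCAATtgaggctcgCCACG
Dnajc3: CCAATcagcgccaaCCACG
Hsp90b1, downstream match: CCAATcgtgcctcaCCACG
Hsp90b1, upstream match: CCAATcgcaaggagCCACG
Hspa5: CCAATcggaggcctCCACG
Pdia6: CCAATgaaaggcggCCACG
Syvn1: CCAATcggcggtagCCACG

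The first base of the match on the gene's strand lay between 44 bases (*Syvn1*) and 212 bases (the upstream match of *Hsp90b1*) before the start site. The 250 bases before the start of *Hspa5* and *Hsp90b1*, the most studied targets of the response, and of *Dnajc3* and *Syvn1*, which passed the test in opposite directions between *Firre* rescue and ∆*Firre*, are given on the gene's strand with ERSE matches in capitals. A match on the opposite strand reads CGTGG first. *Hspa5* spans chr2:34771840-34772089 (plus strand), *Hsp90b1* chr10:86705445-86705694 (minus strand), *Dnajc3* chr14:118937682-118937931 (plus strand) and *Syvn1* chr19:6046326-6046575 (plus strand).
Hspa5: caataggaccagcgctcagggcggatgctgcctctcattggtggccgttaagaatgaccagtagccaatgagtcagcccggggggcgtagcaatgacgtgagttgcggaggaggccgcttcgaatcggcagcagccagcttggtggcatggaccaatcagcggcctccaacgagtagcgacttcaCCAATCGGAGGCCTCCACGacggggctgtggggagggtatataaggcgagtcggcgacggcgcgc
Hsp90b1: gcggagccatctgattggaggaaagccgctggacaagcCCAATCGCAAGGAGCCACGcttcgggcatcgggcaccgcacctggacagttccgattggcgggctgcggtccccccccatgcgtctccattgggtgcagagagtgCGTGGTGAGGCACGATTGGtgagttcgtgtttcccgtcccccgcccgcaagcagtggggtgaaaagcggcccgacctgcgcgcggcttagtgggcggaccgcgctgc
Dnajc3: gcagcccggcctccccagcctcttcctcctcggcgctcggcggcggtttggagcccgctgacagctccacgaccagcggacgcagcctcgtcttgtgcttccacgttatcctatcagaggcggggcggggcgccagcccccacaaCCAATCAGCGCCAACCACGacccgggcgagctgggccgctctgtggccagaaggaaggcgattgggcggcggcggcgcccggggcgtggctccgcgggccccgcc
Syvn1: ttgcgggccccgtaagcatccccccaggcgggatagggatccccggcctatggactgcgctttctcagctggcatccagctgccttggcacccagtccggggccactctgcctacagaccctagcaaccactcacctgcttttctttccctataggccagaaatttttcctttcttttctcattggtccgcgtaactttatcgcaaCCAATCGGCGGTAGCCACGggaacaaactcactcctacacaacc

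In WT CLPs the 37 genes spanned a wide range of levels per length. *Calr* (880 ± 112 TPM, SD, n = 4) and *Hsp90b1* (845 ± 162 TPM), which encode calreticulin and Grp94, led and overlapped each other. *Pdia3* (590 ± 49.7), *Hspa5* (508 ± 47), *Canx* (468 ± 50.5) and *P4hb* (414 ± 24.9 TPM) followed, each overlapping the next, and no library of *P4hb* reached down to *Pdia4* (259 ± 20.4 TPM). *Xbp1* was at 140 ± 6.96 TPM, while the sensors stood lower, *Ern1* at 48.7 ± 5.41, *Atf6* at 44.7 ± 3.18 and *Eif2ak3*, the lowest of the 37, at 16.8 ± 2.15 TPM. *Ern1* and *Atf6* overlapped. Summed over the 37 genes, WT libraries held 6375 to 7544 TPM and ∆*Firre* libraries 6174 to 6594 TPM, while *Firre* rescue libraries held 5834 to 6083 TPM, below every library of the other groups. That order depended on the TPM scale: divided by median-ratio size factors, the sums were 5886 to 7096, 5925 to 6529 and 5816 to 7001 TPM and the groups overlapped.

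**Figure D2:**
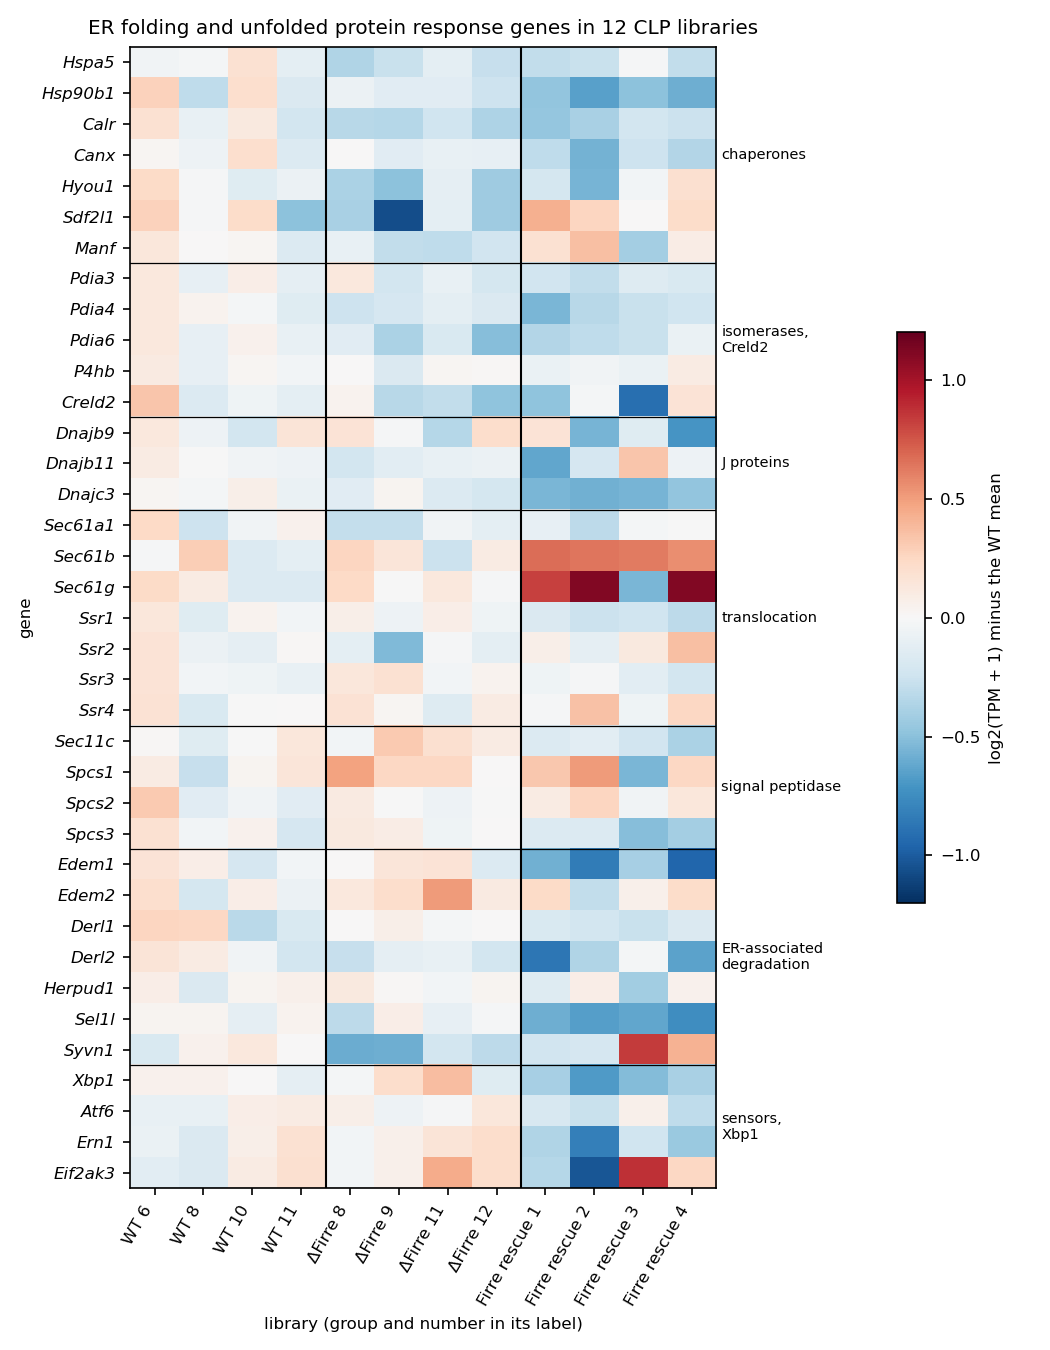
Each cell is log2(TPM + 1) of a gene in a library minus the mean of the 4 WT libraries, with genes in rows by role and libraries in columns. Xbp1, Ern1, Edem1, Sel1l and Dnajc3 are below the WT mean in all 4 Firre rescue libraries, Sec61b is above it in all 4, and the chaperones are mostly below it in ∆Firre.

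Loss of *Firre* left none of the 37 genes past the adjusted threshold against WT. limma called 0 of 37 (Benjamini-Hochberg adjusted p no larger than 0.1 over all genes tested), where 0.0207% of all genes were called. That is 3 of 14479 genes. The study's own test, on read counts with p-values calculated empirically, passed more genes between these groups at the same threshold. A count of 0 here is therefore not evidence of no change. At an unadjusted p under 0.05, 6 of 37 differed and all 6 were lower in ∆*Firre*, against 4.12% of all genes lower at that level. The 6 were the chaperones *Calr*, *Hspa5*, *Hyou1* and *Sdf2l1* and the disulfide isomerases *Pdia4* and *Pdia6*. limma-voom on the recovered reads called 0 of the 37, beside 0% of all genes. It did not call the deleted *Firre* either, so this 0 says little. At an unadjusted p under 0.05 limma-voom had 3 of the 37 lower (*Calr*, *Hyou1* and *Pdia6*), against 1.45% of all genes. The median difference of the 37 genes was -0.03 on the log2(TPM + 1) scale, beside -0.06 for all genes.

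By role, the groups lay on either side of WT, without passing the adjusted test. All 7 chaperones (median -0.26) and all 5 genes of the isomerase group (median -0.18) were below 0, where 61.4% of all genes were. That held in the higher of the ranges of library numbers described below, and not in the lower, where *Hsp90b1* (0.13), *Canx* (0.07), *Pdia3* (0.12), *P4hb* (0.08) and *Creld2* (0.02) were above 0 and *Sdf2l1* was at -0.00. The 4 signal peptidase subunits (0.01 to 0.24) and the 4 sensors and transcription factors (0.03 to 0.17) were above 0, though *Spcs2* (-0.15) and *Spcs3* (-0.07) were below it in the higher range, where *Xbp1* was at 0.00. The other groups lay on both sides, with 2 of 3 J proteins (-0.13 to 0.01), 2 of 7 translocation genes (-0.19 to 0.08) and 3 of 7 degradation genes (-0.43 to 0.24) below 0. *Calr*, a lectin chaperone of the ER lumen, measured 993, 824, 952 and 752 TPM in WT and 695, 690, 743 and 678 TPM in ∆*Firre*, so that the groups did not overlap (difference -0.32, SE 0.09, adjusted p = 0.889). *Hspa5*, the Hsp70 chaperone BiP, measured 492, 499, 574 and 465 TPM in WT and 394, 421, 466 and 418 TPM in ∆*Firre* (difference -0.26, SE 0.09, adjusted p = 0.929). Its highest ∆*Firre* library lay just above its lowest WT library. *Sdf2l1*, a partner of ER J proteins, ran from 48.9 to 84.1 TPM in WT and from 32.6 to 63.5 TPM in ∆*Firre* (difference -0.50, SE 0.20, adjusted p = 0.929). Groups did not overlap for 4 of the 37 genes, *Calr*, *Pdia6*, *Dnajb11* and *Syvn1*, all lower in ∆*Firre*, against 4.49% of all genes.

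The 8 genes with an ERSE match were all below 0 in ∆*Firre*, from -0.43 (*Syvn1*) to -0.08 (*Canx*), with a median of -0.26, where 61.4% of all genes were below 0. Of the 21 genes with a promoter and no match, 7 were below 0, and their median was 0.03. All 8 stayed below 0 after rescaling by the median ratio, quantile normalization, correction for exon GC content and limma-voom, with medians from -0.23 to -0.19. These settings use the same libraries and so add no independent support. The share of all genes below 0 under them, or within each range of library numbers, is not given here. In the lower range of library numbers 5 of the 8 were below 0 (median -0.09), *Hsp90b1*, *Canx* and *Creld2* being the exceptions, and in the higher range all 8 (median -0.43). These are descriptions of 8 genes that were grouped with the fold changes known, and 6 of them belong to the chaperone or isomerase groups. Between *Firre* rescue and ∆*Firre* the same 8 lay on both sides, 5 below 0 and 3 above, from -0.42 (*Dnajc3*) to 0.64 (*Syvn1*), with a median of -0.03.

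WT and ∆*Firre* libraries fall into a lower and a higher range of library numbers, each with 2 WT and 2 ∆*Firre* libraries. Of the 6 genes at an unadjusted p under 0.05, 5 were below 0 within the lower range, with *Sdf2l1* at -0.00, and 6 within the higher, but sizes differed: *Calr* by -0.13 and -0.51, *Hspa5* by -0.17 and -0.34, *Hyou1* by -0.20 and -0.50. No gene of the 37 had an unadjusted p under 0.05 within the lower range, where 3.58% of all genes were lower at that level. Within the higher range 9 were, all lower, against 3.64% of all genes, and 5 of them were among the 6. Without WT-6, 3 of the 6 remained at that level (*Calr*, *Hspa5* and *Pdia6*; 3.37% of all genes lower), and without WT-10 3 did (*Calr*, *Hyou1* and *Pdia6*; 4.28%). WT-6 had the highest basophil and mast cell sum, 8867 TPM. After rescaling by the median ratio *Calr* alone of the 6 remained, against 2.82% of all genes lower, and *Edem2*, which was higher, came to that level.

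**Figure D3:**
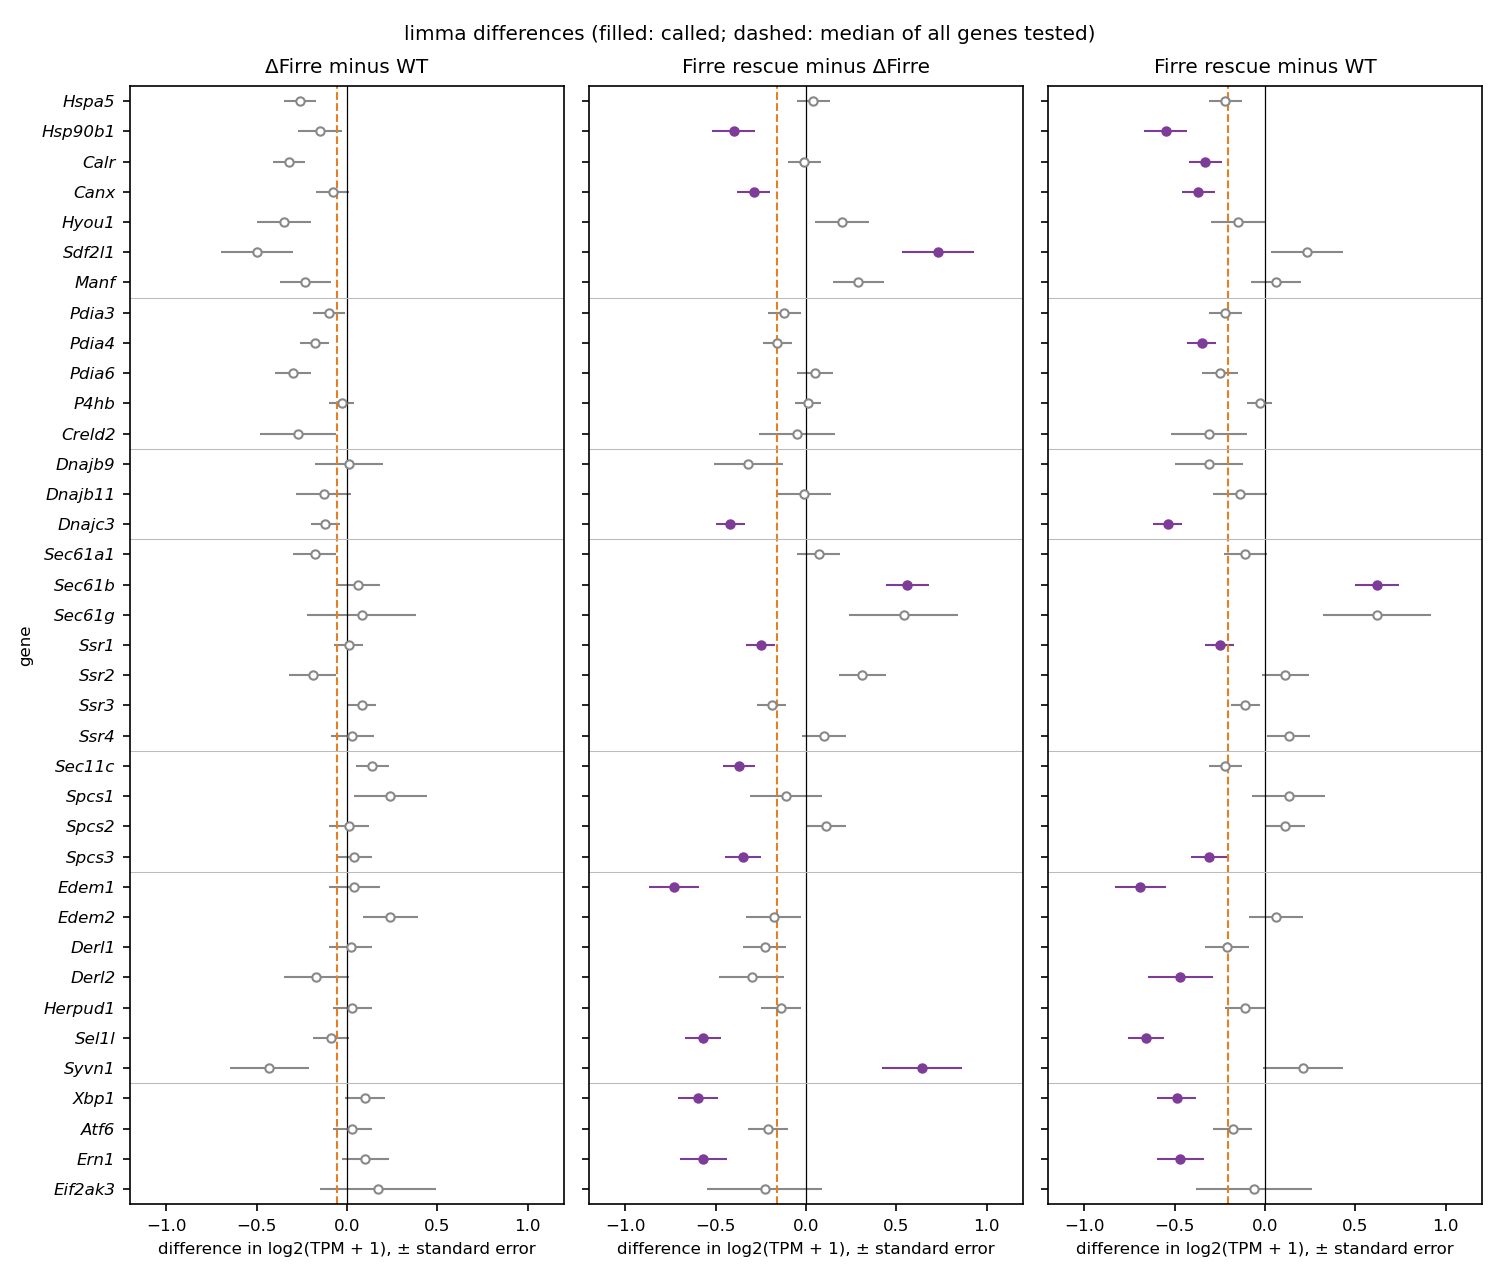
Difference in log2(TPM + 1) with its standard error for each of the 37 genes in the 3 comparisons (4 libraries a group). Filled points passed the adjusted threshold of 0.1, open points did not, and the dashed line is the median of all genes tested (-0.058, -0.161 and -0.208 from left to right). No point is filled for ∆Firre against WT, and 13 are in each of the other comparisons.

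*Firre* rescue CLPs differed from ∆*Firre* in 13 of the 37 genes, 3 higher and 10 lower. The genes that were lower included *Xbp1*, *Ern1*, *Edem1*, *Sel1l* and *Dnajc3*, and those that were higher were *Sdf2l1*, *Syvn1* and *Sec61b*. The share called, 35.1%, was near the background of all genes, 27.9% (8.58% higher and 19.3% lower), and the median of the 37 genes, -0.14, near the all-gene median of -0.16. Groups did not overlap for 2 genes higher and 11 lower, against 6.31% and 15.6% of all genes. The counts are therefore no result about the 37 genes as a group, and the values of single genes follow.

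Among the sensors and transcription factors, 2 of 4 fell. *Xbp1* (chr11:5520641-5525993) measured 138, 162, 182 and 127 TPM in ∆*Firre* and 106, 87.2, 97.1 and 107 TPM in *Firre* rescue, with 145, 145, 141 and 130 TPM in WT. Every *Firre* rescue library lay below all 8 others, and the level was 0.66 times that of ∆*Firre* (difference -0.60, SE 0.11, adjusted p = 0.00433). *Ern1* (chr11:106397620-106487796), the kinase and nuclease that splices *Xbp1* mRNA, measured 47.3, 50.4, 54.2 and 56.1 TPM in ∆*Firre* and 37.4, 27, 40.8 and 35.3 TPM in *Firre* rescue, again without overlap (0.68 times, difference -0.57, SE 0.13, adjusted p = 0.0127). WT libraries were at 45.7, 42.9, 51 and 55 TPM.

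The other sensors were not called. *Atf6* (chr1:170704457-170868585) measured 46.7, 42.6, 44.2 and 49.1 TPM in ∆*Firre* and 38.8, 36.8, 46.6 and 35.9 TPM in *Firre* rescue, with 41.9, 41.9, 47.1 and 47.7 TPM in WT (difference -0.21, SE 0.11, adjusted p = 0.191), where the rescue-3 library alone reached the ∆*Firre* range. Without rescue-3, *Atf6* was called lower. *Eif2ak3* (chr6:70844484-70905241) measured 16.2, 17.4, 23 and 19.4 TPM in ∆*Firre* and 12.9, 7.64, 31.4 and 20 TPM in *Firre* rescue, with 15.2, 14.7, 17.9 and 19.2 TPM in WT. The *Firre* rescue libraries had a spread wider than either other group (SD 10.3 TPM, against 2.99 in ∆*Firre* and 2.15 in WT), and the difference of -0.23 had a standard error of 0.32.

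Of the 7 chaperones, 2 were called lower and 1 higher. *Hsp90b1* (chr10:86690841-86705444), encoding the ER Hsp90 Grp94, measured 794, 756, 759 and 701 TPM in ∆*Firre* and 599, 529, 594 and 556 TPM in *Firre* rescue, with 1009, 676, 957 and 739 TPM in WT. *Firre* rescue lay below all 8 others, and it fell to 0.76 times (difference -0.40, SE 0.12, adjusted p = 0.0316). This fall depended on the scaling, at -0.28 (adjusted p = 0.138) after rescaling by the median ratio and -0.01 (adjusted p = 0.973) after correction for exon GC content. *Canx* (chr11:50293957-50325673), the membrane-bound lectin chaperone calnexin, fell from 467, 424, 437 and 436 TPM to 377, 315, 393 and 364 TPM, also without overlap, and WT was at 474, 447, 535 and 416 TPM (difference -0.29, SE 0.09, adjusted p = 0.0451), but was at 0.15 after the GC correction. *Sdf2l1* (chr16:17130138-17132383) rose, from 52.6, 32.6, 63.5 and 51.2 TPM to 93.1, 83, 69.5 and 80.4 TPM (1.65 times, difference 0.73, SE 0.20, adjusted p = 0.0275). All 4 *Firre* rescue libraries of *Sdf2l1* lay above all 4 ∆*Firre* libraries but overlapped WT, at 84.1, 68.3, 80.8 and 48.9 TPM.

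*Hspa5* (chr2:34772090-34776529) measured 411, 419, 502 and 412 TPM in *Firre* rescue against 394, 421, 466 and 418 TPM in ∆*Firre*, and the difference of 0.04 (SE 0.09, adjusted p = 0.819) was smaller than its error. After the GC correction it was called higher, at 0.37 (adjusted p = 0.0188). *Calr*, *Hyou1* and *Manf* were not called either, at -0.01, 0.20 and 0.29. None of the 5 genes of the isomerase group was called, and they lay between -0.16 (*Pdia4*) and 0.05 (*Pdia6*).

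Of the 3 J proteins, co-chaperones that hand clients to BiP, *Dnajc3* (chr14:118937932-118981702) was called. It encodes p58IPK, known also as an inhibitor of the kinase Perk, and measured 131, 148, 129 and 125 TPM in ∆*Firre* and 98.2, 96.5, 97.5 and 104 TPM in *Firre* rescue, with 147, 142, 152 and 137 TPM in WT. The *Firre* rescue libraries were close together and below all others (0.75 times, difference -0.42, SE 0.08, adjusted p = 0.00342). After the GC correction the difference was -0.03 (adjusted p = 0.863). *Dnajb9* and *Dnajb11* differed by -0.32 and -0.01.

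In the translocation group, 1 gene was called higher and 1 lower. *Sec61b* (chr4:47474661-47483233), the beta subunit of the Sec61 channel, measured 238, 219, 166 and 213 TPM in ∆*Firre* and 316, 311, 307 and 293 TPM in *Firre* rescue, with 197, 243, 177 and 183 TPM in WT. It rose to 1.48 times (difference 0.56, SE 0.12, adjusted p = 0.00728), with every *Firre* rescue library above all 8 others. *Sec61g* was at 52.8, 64.8, 19.8 and 64.5 TPM in *Firre* rescue and 29.1 to 34.8 TPM in ∆*Firre*, with rescue-3 below and the other 3 above (difference 0.54, SE 0.30, adjusted p = 0.222), and it was called higher without rescue-3 and after the GC correction. *Sec61a1*, the pore-forming subunit, differed by 0.07 and was called higher after the GC correction. Differences between subunits were not tested. *Ssr1* (chr13:37971401-37994208), a subunit of the translocon-associated complex, fell from 115, 105, 116 and 106 TPM to 97.5, 91.8, 92.9 and 88.1 TPM, with WT at 121, 99.1, 113 and 107 TPM (difference -0.25, SE 0.08, adjusted p = 0.0477; 0.12 after the GC correction). It kept its call in 17 of 26 alternatives, and lost it without ∆*Firre*-8, ∆*Firre*-11 or rescue-4, among others. *Ssr2*, *Ssr3* and *Ssr4* were not called, at 0.31, -0.19 and 0.10.

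The signal peptidase, which trims signal sequences from entering proteins, had 2 of 4 subunits lower. *Sec11c*, a catalytic subunit, measured 165, 211, 193 and 181 TPM in ∆*Firre* and 151, 155, 144 and 130 TPM in *Firre* rescue, with 171, 153, 168 and 186 TPM in WT (difference -0.37, SE 0.09, adjusted p = 0.0193). *Spcs3* (chr8:54520433-54529998) measured 253, 248, 225 and 233 TPM and then 207, 207, 163 and 175 TPM, with 264, 228, 241 and 202 TPM in WT (difference -0.35, SE 0.10, adjusted p = 0.0303). Neither overlapped between *Firre* rescue and ∆*Firre*, but both overlapped WT. Neither was called after rescaling by the median ratio (-0.24 and -0.23) or the GC correction (-0.07 and 0.11). *Spcs1* and *Spcs2* differed by -0.11 and 0.11 and were not called.

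ER-associated degradation, which returns misfolded proteins to the cytosol for the proteasome, held 2 genes that fell and 1 that rose. *Edem1* (chr6:108824045-108859356), a mannosidase-like protein that marks misfolded glycoproteins and is a known Xbp1 target, measured 62.4, 68.9, 69.7 and 55.4 TPM in ∆*Firre* and 41.3, 34.3, 46.9 and 31.7 TPM in *Firre* rescue, with 69.6, 65.7, 53.7 and 60.5 TPM in WT. It had the lowest ratio of the 37 genes, 0.60 times (difference -0.73, SE 0.14, adjusted p = 0.00381), and no library overlapped. *Sel1l* (chr12:91806043-91849157), the adaptor of the Hrd1 ubiquitin ligase, fell from 41.2, 54.5, 48.1 and 51.1 TPM to 34, 32.2, 33.1 and 30.3 TPM, with WT at 52.7, 52.8, 47.9 and 53.1 TPM (0.67 times, difference -0.57, SE 0.10, adjusted p = 0.00339), and was at -0.23 (adjusted p = 0.165) after the GC correction.

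*Syvn1* (chr19:6046576-6053718) encodes Hrd1 itself and went the other way. It measured 16.4, 16.5, 21.5 and 20.1 TPM in ∆*Firre* and 21.4, 21.8, 46.1 and 34 TPM in *Firre* rescue, with 22.1, 26.2, 27.7 and 25.4 TPM in WT (1.55 times, difference 0.64, SE 0.22, adjusted p = 0.0601). The groups touched, rescue-1 lying just below the highest ∆*Firre* library, and the call was lost in 9 of 26 alternatives: without ∆*Firre*-8, ∆*Firre*-9, rescue-3 or rescue-4 (differences of 0.42 to 0.78 over all libraries left out in turn), after the GC correction (0.46, adjusted p = 0.117), without the low-level filter, when WT was left out of the fit, with the replicate block and at an adjusted p of 0.05. *Edem2*, *Derl1*, *Derl2* and *Herpud1* were not called, at -0.18, -0.23, -0.30 and -0.14.

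**Figure D4:**
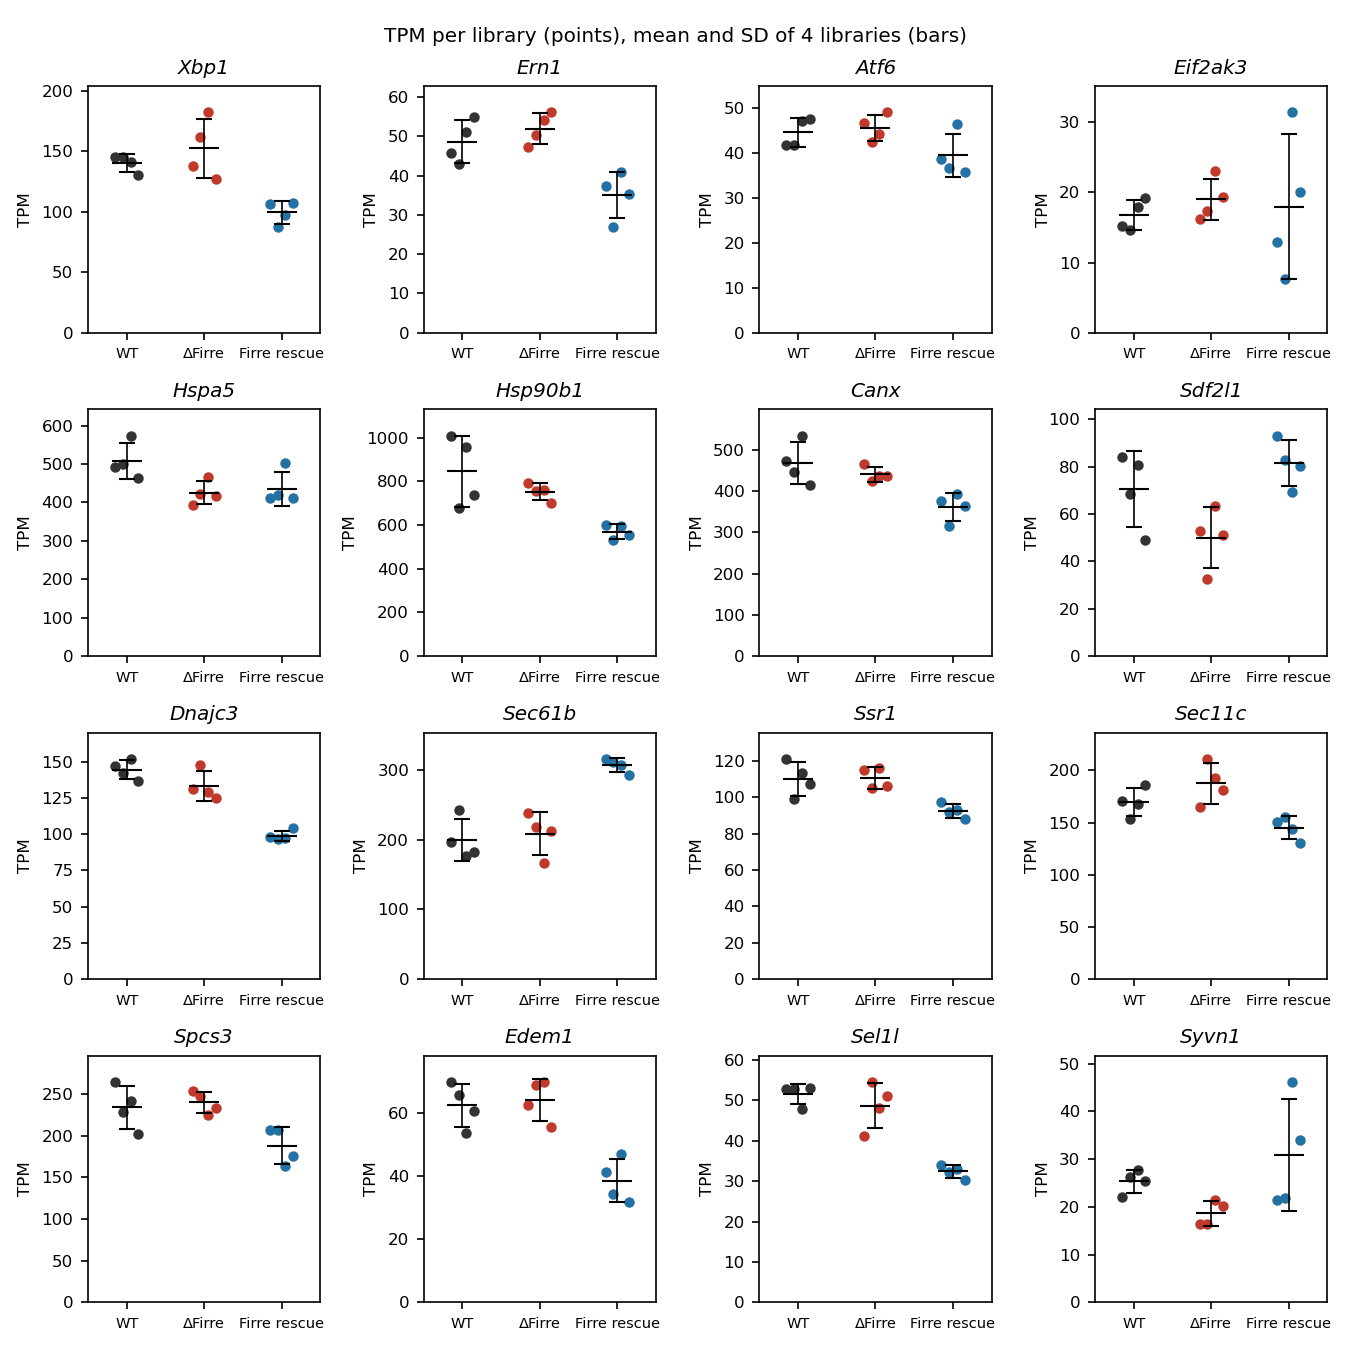
TPM of 16 genes in each library (points), with the mean and SD of the 4 libraries of each group (bars); axes start at 0. The Firre rescue points of Xbp1, Ern1, Edem1, Sel1l and Dnajc3 lie below all 8 others, those of Sec61b lie above all 8, and Eif2ak3 spreads from 7.64 to 31.4 TPM in Firre rescue.

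The split between higher and lower calls moved with the scaling. The median of all genes shifted by -0.161 between *Firre* rescue and ∆*Firre*, beside falls of -0.29 (SE 0.09) for *Canx* and -0.25 (SE 0.08) for *Ssr1*. After rescaling by the median ratio, 9 genes were called, 4 higher and 5 lower (13.1% and 12.9% of all genes), without *Canx*, *Hsp90b1*, *Sec11c*, *Spcs3* and *Ssr1* and with *Ssr2* higher. After correction for exon GC content, 12 were called, 9 higher and 3 lower (13.7% and 5.8% of all genes), and 5 of the original 13 were among them. The 7 genes it added, all higher, were *Hspa5*, *Manf*, *Pdia6*, *Sec61a1*, *Sec61g*, *Spcs2* and *Ssr3*. limma-voom gave 5 higher and 6 lower (13.1% and 15.6% of all genes), without *Canx*, *Sec11c*, *Spcs3* and *Ssr1* and with *Hyou1* and *Ssr2* added. Across 26 alternatives, 5 genes kept their call and direction in every one: *Xbp1*, *Ern1* and *Edem1* lower, and *Sdf2l1* and *Sec61b* higher. Their adjusted p ranged up to 0.0263, 0.0981, 0.0576, 0.0909 and 0.0203. *Dnajc3* and *Sel1l* were lost only after the GC correction.

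**Figure D5:**
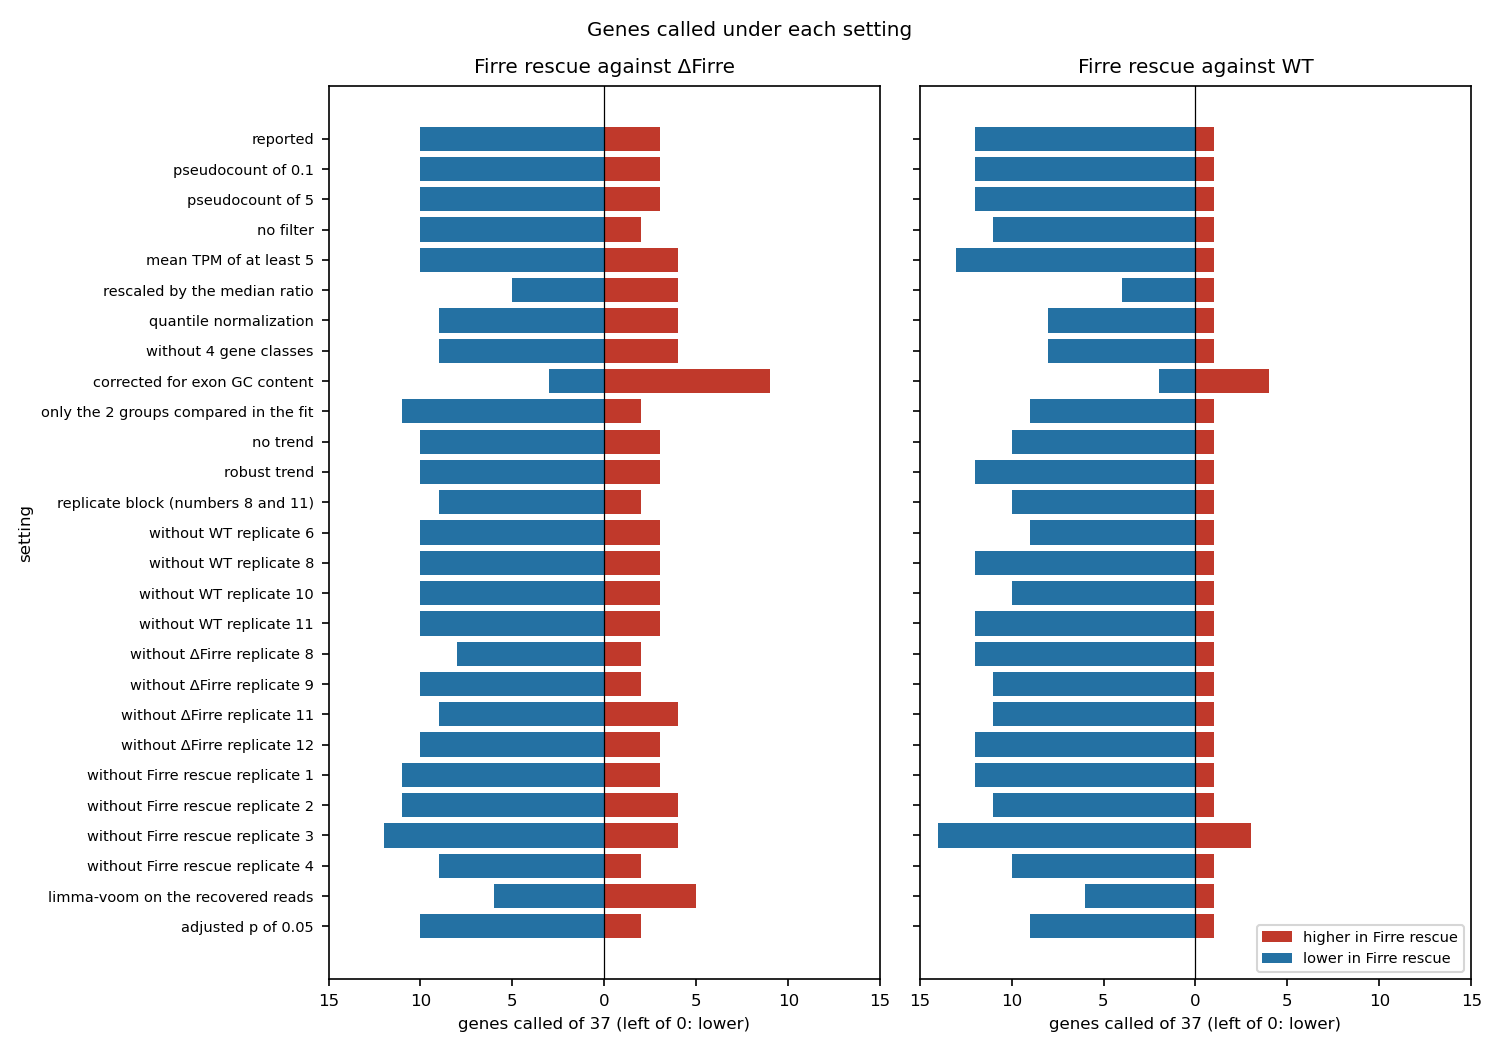
Number of the 37 genes called higher (right of 0) or lower (left of 0) in Firre rescue under each setting, against ∆Firre and against WT. Against ∆Firre, 10 lower and 3 higher as reported become 3 lower and 9 higher after the GC correction; without 4 gene classes stands for leaving out Firre, immunoglobulin, ribosomal protein and mitochondrial genes.

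Against WT, *Firre* rescue also had 13 of 37 genes called, 1 higher and 12 lower, beside 24.3% of all genes (4.82% higher and 19.4% lower). The median of the 37 genes was -0.21, beside an all-gene median of -0.208. This comparison shares its *Firre* rescue libraries with the one above. *Sec61b* was higher (difference 0.62, SE 0.12, adjusted p = 0.00496). *Edem1* (-0.69, adjusted p = 0.00589), *Sel1l* (-0.66, adjusted p = 0.00185), *Hsp90b1* (-0.55, adjusted p = 0.00862), *Dnajc3* (-0.54, adjusted p = 0.000976), *Xbp1* (-0.49, adjusted p = 0.0126) and *Ern1* (-0.47, adjusted p = 0.0315) were lower. *Canx*, *Calr*, *Pdia4*, *Spcs3*, *Ssr1* and *Derl2* were lower by smaller or less certain amounts, from -0.47 (*Derl2*, adjusted p = 0.0841) to -0.25 (*Ssr1*, adjusted p = 0.0573).

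*Sdf2l1* and *Syvn1*, higher in *Firre* rescue than in ∆*Firre*, were not called against WT (0.23, SE 0.20, and 0.21, SE 0.22). *Hspa5* averaged 508 ± 47 TPM over WT, 425 ± 30.2 TPM over ∆*Firre* and 436 ± 44.2 TPM over *Firre* rescue libraries, and its difference from WT, -0.22, was not called (SE 0.09, adjusted p = 0.12). *Sec61b*, *Edem1* and *Sel1l* kept their call and direction in all 26 alternatives. Rescaling by the median ratio left 5 of 37 genes called, 1 higher and 4 lower (9.02% and 8.59% of all genes), and the GC correction 6, 4 higher and 2 lower (10.2% and 5.04%). With the GC correction *Xbp1* (-0.28), *Ern1* (-0.22), *Hsp90b1* (-0.19) and *Dnajc3* (-0.18) were among those no longer called, and *Xbp1* (-0.30) and *Ern1* (-0.28) were not called after rescaling by the median ratio either. *Ern1* was also lost with quantile normalization. limma-voom called 7, 1 higher and 6 lower (8.31% and 10.3%). *Derl2* kept its call in 7 of the 26, *Ssr1* in 14 and *Spcs3* in 15.

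The rest of the pathway was read from 77 further genes, of which 74 were tested. None was called between ∆*Firre* and WT. Between *Firre* rescue and ∆*Firre*, 11 rose and 22 fell (44.6% called, against 27.9% of all genes), with a median of -0.12 beside -0.161 for all genes. Against WT 4 rose and 23 fell (36.5%, against 24.3% of all genes), with a median of -0.16 beside -0.208. The split moved with the scaling here too. Against ∆*Firre*, 17 rose and 17 fell after rescaling by the median ratio (13.1% and 12.9% of all genes). After the GC correction 16 rose and 5 fell (13.7% and 5.8%), and with limma-voom 17 rose and 18 fell (13.1% and 15.6%). Against WT the counts in the same order were 10 and 11 (9.02% and 8.59% of all genes), 14 and 3 (10.2% and 5.04%), and 10 and 13 (8.31% and 10.3%). By subgroup, as tested on log2(TPM + 1) against ∆*Firre*, where 8.58% of all genes rose and 19.3% fell, 3 of 17 folding genes rose and 5 fell, 4 of 13 glycosylation genes rose and 1 fell, none of 13 targeting and translocation genes rose and 6 fell, 1 of 16 degradation genes rose and 4 fell, and 3 of 15 signalling genes rose and 6 fell.

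The largest rise was that of *Ppp1r15a*, which encodes Gadd34, the phosphatase subunit that reverses eIF2α phosphorylation. It measured 7.21, 15, 15.4 and 11.6 TPM in ∆*Firre* and 72.6, 49.4, 84.6 and 56.6 TPM in *Firre* rescue, with 11.3, 11.8, 12.3 and 10.8 TPM in WT. No *Firre* rescue library came near the others (5.09 times, difference 2.35, SE 0.22, adjusted p = 6.83e-05). *Atf4* and *Ddit3*, the transcription factors of the Perk arm, named here after their values were seen, were not called, at 0.20 (SE 0.13, adjusted p = 0.297) and -0.22 (SE 0.23, adjusted p = 0.523). *Ppp1r15b*, also a signalling gene and also named after its values were seen, was called lower than in ∆*Firre* (-0.53, SE 0.10, adjusted p = 0.00505). It was lower than in WT too (-0.44, adjusted p = 0.0147).

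*Mzb1*, an ER co-chaperone of the B lineage, rose from 61.6, 61.9, 54.4 and 46.6 TPM in ∆*Firre* to 145, 160, 80.8 and 219 TPM, with 46, 87.7, 45.5 and 59.1 TPM in WT (difference 1.34, adjusted p = 0.0061). *Derl3*, a Derlin of degradation, fell from 10.4, 15, 22 and 6.68 TPM to 1.8, 4.1, 0.707 and 5.01 TPM, with WT at 8.03, 7.24, 8.44 and 5.86 TPM (difference -1.95, adjusted p = 0.00737). Both are also on the list of antibody-secreting markers, and they lay on opposite sides. *Creb3l2*, an ER-bound transcription factor, fell from 10.1, 14.6, 13.8 and 9.39 TPM to 8.65, 6.76, 2.84 and 4.04 TPM, with WT at 15.9, 11.4, 10.3 and 13.2 TPM (difference -1.05, adjusted p = 0.0228).

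Beside the lower *Xbp1* and *Edem1* in *Firre* rescue, 9 of 15 markers of antibody-secreting cells were called lower there, where 19.3% of all genes were. Among them were *Derl3* and *Jchain*, the latter at 58.1, 195, 27.7 and 1.18 TPM against 1369 to 3110 TPM in ∆*Firre*. *Tnfrsf17*, also called lower, was at 0 in 3 of 4 *Firre* rescue libraries. *Sdc1*, which encodes the surface marker CD138, was higher (70.5 to 104 against 43 to 58.1 TPM, difference 0.68, adjusted p = 0.0271), as was *Mzb1*, and *Irf4*, *Eaf2*, *Ighg1* and *Ighg2c* were not called. ∆*Firre* had a higher antibody-secreting sum than WT in every library, and *Xbp1* differed between them by 0.10 (SE 0.11). Within *Firre* rescue, *Igkc* measured 2392, 1760, 678 and 20 TPM and *Xbp1* 106, 87.2, 97.1 and 107 TPM, in the library order used for *Jchain*. Whether these cells have a part in the levels of the 37 genes was not tested.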

How the data were processed

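Poly(A) RNA-seq libraries of sorted CLPs (12 mice, 4 per genotype) were sequenced by the authors, trimmed with cutadapt, aligned with TopHat2 2.1.1 to mm10 and counted per gene with featureCounts. The authors deposited the values as TPM, that is reads per unit of gene length, brought to a common sum per library; settings for strand and for reads that match several copies are not given in the sources used here, so genes with pseudogene copies are less certain. TPM were tested as log2(TPM + 1) with limma 3.58.1 in R 4.3.3 (mean-variance trend, all 3 groups in one fit, two-sided, Benjamini-Hochberg adjusted p over 14479 genes, called at 0.1). Fold changes on this scale understate changes of low genes. Because TPM steps kept whole reads (98.4% of values above 0 within 0.05 reads), depth was recovered and limma-voom was run on the reads as an alternative chosen after seeing the data.

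The 37 genes, the further pathway genes and the marker lists were chosen with earlier results of these data known. Values in every library are given for the sensors, for *Hspa5* and *Hsp90b1*, and in each other role for up to 3 called genes with the largest difference between *Firre* rescue and ∆*Firre*; of the further pathway genes, the 2 that rose and the 2 that fell most. *Calr* and *Sec61g* fall outside this rule and were given by library after their values were seen. No 2 libraries of a group agreed within sampling noise (chi-square over its degrees of freedom at least 16.4). Of 78 further genes listed, 77 matched a symbol. Promoters and positions are from RefSeq on GRCm38.p6. Exon GC content was available for 90.4% of genes tested. The GC correction subtracted from each library its whole fitted curve of level on GC content, which includes the library's overall level. The fit was checked on simulated data. Protein sequences were not used here.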

Additional observations from a re-analysis of the deposited data

Results flagged for a closer look

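Among 50 sets of 4 log2(TPM + 1) values (the 16 genes that the rule for values by library names and *Firre*, in each group where they varied), a library stood apart from its group in 2, where chance alone would give 2.5. *Hspa5* was at 8.97 in rescue-3 and between 8.69 and 8.71 in the other 3 *Firre* rescue libraries. *Sel1l* was at 5.61 in WT-10 and between 5.75 and 5.76 in the other 3 WT libraries.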

How the results depend on the processing

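The 0 genes called between ∆*Firre* and WT stayed 0 in every alternative run. Between *Firre* rescue and ∆*Firre*, 10 to 16 of the 37 genes were called when libraries were left out in turn (10 without ∆*Firre*-8, 16 without rescue-3), and between *Firre* rescue and WT 10 to 17 (10 without WT-6, 17 without rescue-3). The share of all genes called with a library left out is not given here, so these ranges are no result about the 37 genes as a group. The 13 genes called between *Firre* rescue and WT became 5 after rescaling by the median ratio, 6 after the exon GC correction and 7 with limma-voom; the cause was not tested. With the GC correction, differences from ∆*Firre* turned to 0.15 for *Canx*, 0.12 for *Ssr1*, 0.11 for *Spcs3*, 0.14 for *Atf6* and 0.01 for *Eif2ak3*, and differences from WT to 0.03 for *Canx*, 0.10 for *Ssr1* and 0.11 for *Spcs3*. Leaving out libraries, *Hspa5* ranged from -0.03 (without rescue-3) to 0.08, against 0.37 with the GC correction, and *Eif2ak3* from -0.54 (without rescue-3) to 0.09 (without rescue-2) between *Firre* rescue and ∆*Firre*. *Firre* itself, with no read in ∆*Firre*, had an adjusted p of 1 between ∆*Firre* and WT in limma-voom and passed in the other alternatives. Of the values of single genes under the alternatives, 897 kept direction and side of the threshold. A further 86 lost the call without a change of sign, 2 gained it and 10 changed sign. Some of those that changed sign, such as *Canx* after the GC correction, lost the call as well.

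WT and ∆*Firre* share the numbers 8 and 11, but same-numbered libraries did not deviate together (correlations -0.0328 and -0.0411), so they were not treated as pairs; all 4 of these libraries lie in the lower range of library numbers. With these numbers as a replicate block, 0, 11 and 11 of the 37 genes were called in the 3 comparisons, again without the share of all genes beside them. Each of the 37 genes had at least 217 reads in every library.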
